A study of Drosophila melanogaster with 3 samples.

Results

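The near-intronic peaks of the Dbx-eGFP fusion protein are peaks whose summit lay in an intron, outside the promoter but close to a transcription start site (TSS). They were taken from the conservative thresholded peak list by position alone: the summit was inside a protein-coding gene, in no annotated coding sequence (CDS) or untranslated region (UTR), and more than 250 bp but at most 2000 bp from the nearest protein-coding TSS. The rule chose 766 of the 4943 peaks in the list (15.5%, 95% Wilson interval 14.5 to 16.5), and these are the members described here. Of the other peaks, 2543 had their summit within 250 bp of a TSS (promoter peaks), 743 were intronic and over 2000 bp from a TSS (distal intronic peaks), 688 were intergenic and 203 were in CDS or UTR away from promoters. The signal of a peak played no part in the choice.

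The peaks came from chromatin immunoprecipitation with sequencing (ChIP-seq) in Drosophila melanogaster, with whole embryos collected at 8 to 24 h. All embryos carried a transgene for a fusion of Dbx and enhanced green fluorescent protein (eGFP), chromatin was sheared to 200 to 800 bp, and the fusion was precipitated with an anti-GFP antibody. There were 3 biological replicates of this 1 group and no second group, so comparisons are between classes of peak and between replicates. A control experiment named in the labels was not analysed here, so it is not known how far any peak is particular to the fusion. Whole embryos mix all tissues, a peak can come from any of them, and what drives the transgene is not stated in the labels. Read depth is unknown from the lists. The signal of a peak is the authors' own value and was compared only within a list.

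Dbx, a homeodomain protein, is known from interneurons of the embryonic nerve cord. Homeodomain proteins as a class bind short sites with a TAAT core. Introns near the start of a gene, above all first introns, are known places for enhancers, and in Drosophila many genes also have further start sites inside an intron of their longest transcript. GAGA factor, the product of Trl, binds runs of GAGAG and is found at many promoters and enhancers with open chromatin.

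The sequence at the centre of the strongest members shows where the peaks stood. The 30 bases around the summit are shown for 4 of the 5 strongest members found in every replicate, in the RefSeq sequence of dm6, with coordinates and strand. Capitals mark runs of A and T of 5 bases or more.
CG11050 (chr2L:6612690-6612719, plus strand): ttgcTTAAAATTAATAcaagattagATTTT
ph-p (chrX:2137321-2137350, plus strand): acttcagtcgtatccTTAAAATgaaaaccc
Trl (chr3L:14759485-14759514, plus strand): attgTATAAgcgttactggacTATTTTTTc
CG32772 (chrX:4910346-4910375, plus strand): cAAAAATTTAAAgttaagcggTTATAAAAc
The A and T content of these stretches was 83.3% at CG11050, 63.3% at ph-p, 70.0% at Trl and 76.7% at CG32772, against 61.4% in the 20 bp about the centres of windows tiled over sequence that meets the same rule, so that ph-p lay near that background. The summit is base 16 of each stretch. The member of the 5 that is not shown, at Adf1, had the highest G+C content of them over 201 bp about the summit, 44.8%, against 27.4% to 37.8% in the other four.

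Beside this centre, the word ACAGTG had the highest ratio to background of 1391 words of 6 bp, those found in at least 40 members. It was within 100 bp of the summit in 6 of the 20 strongest recurrent members, and is shown at the 4 highest of these, read on the strand that carries the word, which is in capitals.
norpA (chrX:4325053-4325082, minus strand): tttatctcaagtACAGTGgggcctttttgt
MYPT-75D (chr3L:18640757-18640786, minus strand): aagatagtgcttACAGTGgtgggatggaat
Rtnl1 (chr2L:4997563-4997592, plus strand): atcaagcagtgcACAGTGggcacgccagca
NFAT (chrX:13640423-13640452, plus strand): tgttgctttgccACAGTGggctagagcgtg
A G followed the word in all 4, and a second G in all of them but MYPT-75D. The sites lay 90 bp from the summit at norpA, 60 bp at MYPT-75D, 68 bp at Rtnl1 and 78 bp at NFAT. norpA and MYPT-75D also held GAGAG within 100 bp, shown in capitals below on the strand that carries it, 88 bp and 77 bp from the summit.
norpA (chrX:4324876-4324905, plus strand): gcaagagcagcaGAGAGcgccggtacagta
MYPT-75D (chr3L:18640620-18640649, minus strand): ctttcctttttccGAGAGattactgtaacc
None of the words shown says that a protein binds there: a match is a description of the letters.

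Near-intronic peaks recurred between replicates about as often as peaks at large. Of the 766 members, 294 (38.4%, Wilson interval 35.0 to 41.9) overlapped a peak in all 3 replicate lists, against 36.2% of all 4943 peaks. A further 144 were found in 2 lists and 180 in 1, and 148 (19.3%) were found in none, against 20.5% of all peaks. Both shares were near those of the whole list. Replicate 1 held 504 members (65.8%), replicate 2 held 467 (61.0%) and replicate 3, the shortest list, held 379 (49.5%). The share in all 3 lists was 38.7% for promoter peaks, 31.6% for distal intronic, 35.5% for intergenic and 16.3% for CDS or UTR peaks.

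**Figure D1:**
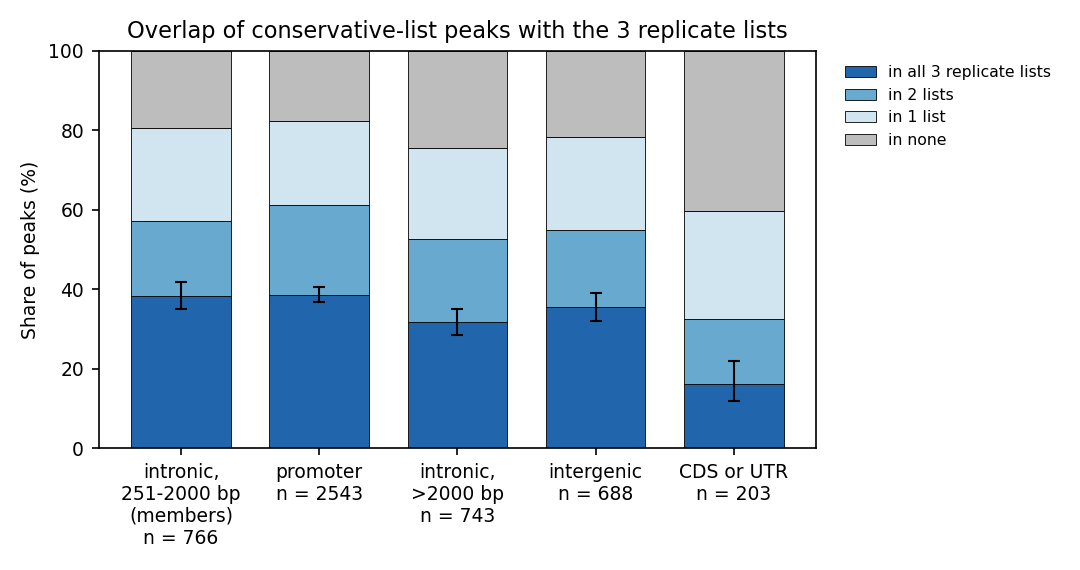
Share of conservative-list peaks (%, vertical axis) that overlapped a peak in all 3, 2, 1 or none of the replicate lists, by class of position, with the members at the left. Error bars are 95% Wilson intervals of the share in all 3 lists, which cover counting error over peaks only. The members (38.4%) stood beside promoter peaks (38.7%) and above distal intronic peaks (31.6%).

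The members found in no replicate list mostly overlapped peaks of the unthresholded ranked lists, as nearly all members did. All 148 overlapped one in replicate 1 and in replicate 2, as did all 766 members, and 119 did in replicate 3, where 717 of the 766 did. The other 29 had none in replicate 3. The irreproducible discovery rate (IDR) is the authors' measure of how poorly a peak repeats, and the thresholded lists stop at 0.01. The median of the best IDR over the 148 was 0.0409 in replicate 1 and 0.0747 in replicate 2. In replicate 3 it was 0.70, over only the 119 that overlapped a ranked peak there. These ranked lists are long and cover 20%, 24.1% and 20.2% of all bases, so an overlap with them carries little weight.

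By signal the members lay in the middle of the list. Their median rank was 2421 of 4943, against 2337 for promoter peaks, 2620 for distal intronic, 2559 for intergenic and 3728 for CDS or UTR peaks. Among the 500 peaks of highest signal were 84 members (11.0%, Wilson interval 8.95 to 13.4), against 10.1% of all peaks, 11.9% of promoter peaks and 5.79% of distal intronic peaks. The members' share of the top 500 was thus near that of the list as a whole. Recurrence was highest in the strongest members: 82 of the 84 members ranked 1 to 500 were in all 3 replicate lists (97.6%), as were 83 of 86 ranked 500 to 1000 (96.5%) and 98 of 163 ranked 1000 to 2000 (60.1%), but 12 of 141 ranked 2000 to 3000 (8.51%), 6 of 151 ranked 3000 to 4000 (3.97%) and 13 of 141 ranked 4000 to 4943 (9.22%). Below rank 2000 the share no longer fell steadily with rank. Shares over all peaks at the same ranks were not computed, so these values show no trait particular to the members.

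The same rule applied to the summits of each replicate list gave 579 of 3701 in replicate 1 (15.6%), 506 of 3353 in replicate 2 (15.1%) and 430 of 2515 in replicate 3 (17.1%). The mean was 15.9% ± 1.04 (SD, n = 3), close to the share in the conservative list. Differences between classes were tested within these lists, with the replicate as the unit, by a two-sided exact permutation test that flips the signs of the 3 within-list differences. With 3 lists its smallest p is 0.25, so no difference could reach 0.05, and over the 30 differences computed the smallest adjusted p was 0.375. The 30 include differences in ACAGTG shares and in ACAGTG and GAGAG densities by distance from the summit. That word and those distances were chosen after the data were seen, so no p is printed for each of them. Replicates and the conservative list come from the same libraries, so the replicate values are not independent of it.

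Near-intronic peaks stood above distal intronic peaks in each replicate on 3 measures of strength. In replicates 1, 2 and 3 the share found in both other lists was 50.6%, 56.3% and 68.8% for near-intronic peaks, against 46.0%, 50.9% and 60.9% for distal intronic peaks, a difference of 6.0 ± 1.73 percentage points (SD, n = 3, higher in 3 of 3, exact permutation p = 0.25). The share among the 500 of highest signal was 16.6%, 16.4% and 20.9% for near-intronic peaks, against 8.97%, 9.83% and 11.3% for distal intronic peaks, a difference of 7.94 ± 1.56 points (3 of 3, exact permutation p = 0.25). Median rank percentiles, where a low value is a strong peak, averaged 48.7 ± 2.57 for near-intronic and 57.7 ± 3.48 for distal intronic peaks (SD, n = 3, lower in 3 of 3, exact permutation p = 0.25). In all of these each replicate had the same direction. Against promoter peaks the directions were mixed: the share in both other lists differed by −2.03 ± 4.67 points (higher in 2 of 3, exact permutation p = 1.00) and the share of the top 500 by −0.34 ± 2.45 points (higher in 1 of 3, exact permutation p = 0.750). Against intergenic peaks the top 500 share was higher in 3 of 3, by 4.80 ± 0.968 points. The share in both other lists was higher in 2 of 3 (3.90 ± 3.42 points), and the median rank percentile was higher in 1 of 3. The top 500 share and the rank percentile come from the same signal ranking, so the 3 measures are not separate.

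The members became denser toward the TSS. Counted over the sequence that meets the same rule for position, there were 86.3 members per Mb at 250 to 500 bp (177 members in 2.05 Mb), 69.6 per Mb at 500 to 1000 bp (277 in 3.98 Mb) and 48.9 per Mb at 1000 to 2000 bp (312 in 6.38 Mb). Distal intronic sequence held 17.6 summits per Mb. The replicate lists had the same order in each case, with means of 58.7 ± 5.70, 48.7 ± 7.30, 29.9 ± 5.34 and 10.7 ± 1.69 per Mb (SD, n = 3). The median member lay 864 bp from its TSS, between 252 bp (mthl10 and Mf) and 1986 bp (tna). Members nearer to the TSS also ranked higher, with median ranks of 1996, 2332 and 2590 from the nearest bin to the farthest, and 41.8%, 41.2% and 34.0% of them were in all 3 lists.

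The limits of the rule fell within these gradients. The 63 intronic summits just inside the promoter class, at 200 to 250 bp, had a median rank of 1439, and the 39 members at 250 to 300 bp had 1770. At the far end the 19 members at 1900 to 2000 bp had a median rank of 2507, and the 27 distal summits at 2000 to 2100 bp had 3047.

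The members were not spread evenly over the sides of a start. Of the members, 441 (57.6%) lay downstream of the nearest TSS of the gene whose intron held them (the host gene), as 60.9% of windows tiled over all sequence meeting the rule did. Another 258 (33.7%) lay upstream of a TSS inside their host gene, in an intron of a longer transcript and before the start of a shorter one, a place that held 20.2% of the tiled windows. The remaining 64 (8.36%) were nearest to the TSS of another gene, against 18.5% of windows. For 3 members more than 1 of these places applied, as where genes share a start or starts lie at equal distances. In the replicate lists the upstream share was 37.7% ± 1.59 and the downstream share 53.8% ± 2.49 (SD, n = 3). The downstream share was lower in the better supported members: 49.0% of those in all 3 replicate lists, 50% of those among the 500 peaks of highest signal, and 48.8%, 48.6% and 52.5% of those in both remaining lists without replicate 1, 2 or 3.

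The rise toward the TSS was seen upstream of an internal start and near the start of another gene, and not downstream of a start of the host gene. Upstream of an internal start there were 189 members per Mb at 250 to 500 bp, 91.9 at 500 to 1000 bp and 67.5 at 1000 to 2000 bp. Downstream of a start the values in the same order were 42.3, 73.7 and 53.2 members per Mb. For members nearest to the TSS of another gene they were 64.4, 25 and 20.7 per Mb, with replicate means of 48.3 ± 3.22, 17.2 ± 1.56 and 10.6 ± 0.427 (SD, n = 3). Replicate lists 1, 2 and 3 had 132, 118 and 122 summits per Mb in the nearest upstream bin, against 36.4, 29.6 and 22.8 in the nearest downstream one. The farthest downstream bin had nearly the same density as the nearest in these lists, at 36.5, 31.6 and 23.9 per Mb. Over all distances they had 84.9, 74.1 and 67.8 per Mb upstream and 42.5, 36.6 and 28.9 downstream, a difference of 39.6 ± 2.49 per Mb (SD, n = 3, higher upstream in 3 of 3, exact permutation p = 0.25). No peak of a member reached over its nearest TSS, and 17 members (2.22%) overlapped a promoter peak. The former is nearly set by the rule, since summits lay more than 250 bp from a TSS and the median peak was 400 bp wide.

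**Figure D2:**
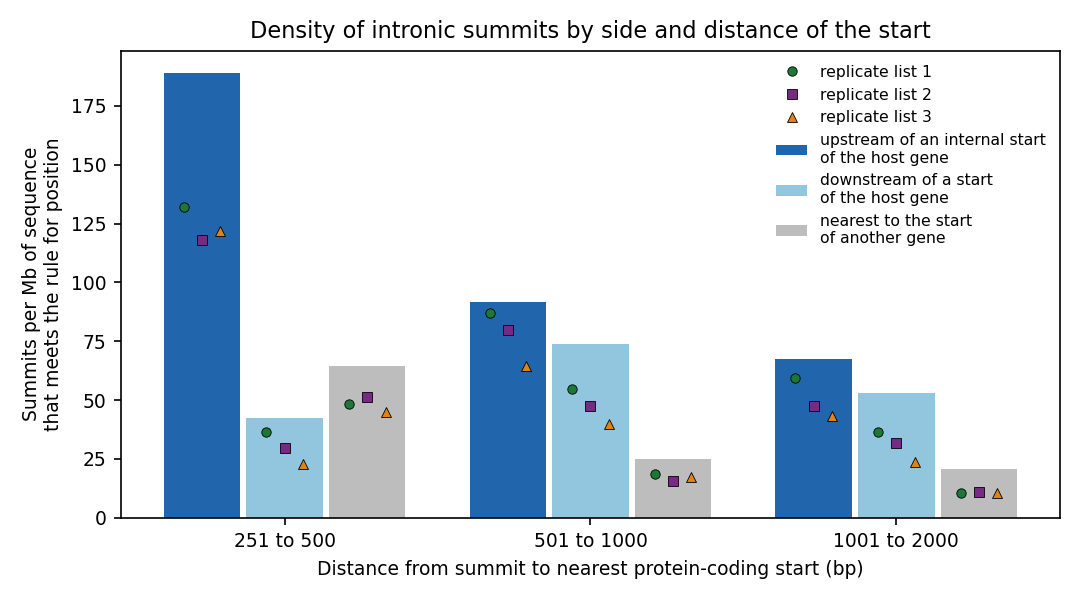
Summits per Mb of sequence that meets the rule for position (vertical axis, linear) by distance to the nearest protein-coding start (bp) and by its side. Bars are the conservative list and points the 3 replicate lists. Upstream of an internal start of the host gene (nearest bin 189 per Mb) and near the start of another gene (64.4 per Mb) the bars fall with distance, while downstream the nearest bar is the lowest at 42.3 per Mb, with replicate points close to those of the farthest bin.

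Upstream members were also the stronger ones. Their median rank was 1928, against 2635 for downstream members, and 122 of 258 (47.3%) were in all 3 replicate lists, against 144 of 441 (32.7%). They lay closer to the TSS, at a median of 604 bp against 956 bp, but the order held in each distance bin: 45.3% against 34.0% at 250 to 500 bp, 51.9% against 35.9% at 500 to 1000 bp and 45.3% against 29.5% at 1000 to 2000 bp. These are shares of conservative-list peaks and were given no test.

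Members sat in early introns. The summit was in the first intron of at least 1 host transcript for 636 of 766 members (83%), against 67.9% of tiled windows, in a second intron for 88 and in a later one for 42. The median intron was 4190 bp long (interquartile range 1773 to 9506), against 3658 bp (1082 to 10531) for the tiled windows, so the lower quartile and median were higher in members and the upper quartile lower. The median peak was 400 bp wide. The members formed 715 separate regions, since 101 of them overlapped another member, and 639 (83.4%) overlapped no other peak of the list. Another 61 lay within the spans of at least 2 protein-coding genes, so their host is 1 of several candidates, and 19 lay within 250 bp of the start of a noncoding gene.

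Members were spread over the chromosomes much as the sequence that meets the rule. The X held 159 members (20.8%, against 19.6% of tiled windows) and chromosome 4 held 1 (0.131% against 1.13%). In all 3 replicate lists were 79 of the 159 X members, 48 of 132 on 2L, 45 of 153 on 2R, 65 of 157 on 3L and 57 of 164 on 3R. Shares over all peaks of each chromosome were not computed, so these counts show no trait particular to the members.

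The 20 members of highest signal that recurred in every replicate kept high ranks in all lists. The highest peak of the whole list was one of them. It lay in the second intron of CG11050, at chr2L:6612431-6613005, 1018 bp downstream of a TSS, in an intron of 140 bp, so that the peak also reached past the intron on both sides. Its signal was 3785 and it ranked first in all 3 replicate lists. The 20 ranked 1 to 139 in replicate 1 (median 50), 1 to 159 in replicate 2 (median 46) and 1 to 193 in replicate 3 (median 41). None fell out of the top 200 of any list. The 20 were chosen by signal and by presence in lists from the same libraries, so high ranks are largely set by the choice.

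Regulators of transcription and chromatin were among the first of them. Adf1, a DNA-binding transcription factor, had a member in its first intron 791 bp downstream of the TSS, with a signal of 1929, rank 7 in the conservative list and ranks 35, 8 and 5 in replicates 1, 2 and 3. ph-p encodes polyhomeotic, a subunit of Polycomb repressive complex 1. Its member lay 481 bp upstream of an internal TSS, with a signal of 1826, rank 9 and replicate ranks 6, 9 and 9. Trl, the gene of GAGA factor, held one 1538 bp from the nearest start or starts, which belong to CG42507 and Trl. It had a signal of 1685, rank 14 and replicate ranks 19, 16 and 11, in a window with 27.4% G and C. HmgZ, an HMG-box chromatin protein, held one 553 bp upstream of an internal TSS, with a signal of 1548, rank 20 and replicate ranks 42, 17 and 14. Adf1 and HmgZ stood lower in replicate 1 than in the other two.

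The rest of the 20 served many functions. CG32772 (rank 16), CG9663 (rank 19), CG9837 (rank 29) and CG3726 (rank 35) are named in the annotation by their identifiers only. norpA (rank 26) encodes the phospholipase C of phototransduction, Rtnl1 (rank 58) a reticulon of the endoplasmic reticulum, and MYPT-75D (rank 57) a targeting subunit of myosin phosphatase. chif (rank 69) is the Dbf4 homologue that activates the Cdc7 kinase at replication origins, and for (rank 131) is foraging, a cGMP-dependent protein kinase. Mekk1 (rank 103) is a MAP kinase kinase kinase, NFAT (rank 107) a transcription factor, LPCAT (rank 113) a lysophospholipid acyltransferase and papi (rank 114) a Tudor-domain protein of the piRNA pathway. The member in an intron of arg, the arginase gene, lay 265 bp from the TSS of elav, a pan-neuronal RNA-binding protein. Its signal was 839, with rank 83 and replicate ranks 80, 94 and 83. On the other side of that TSS, 590 bp downstream in the first intron of elav, lay a further member with a signal of 354. Of the 20, 9 were downstream and 9 upstream of a TSS of the host gene and 1 was nearest to another gene. For 1, at Trl, more than 1 of these places applied.

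**Figure D3:**
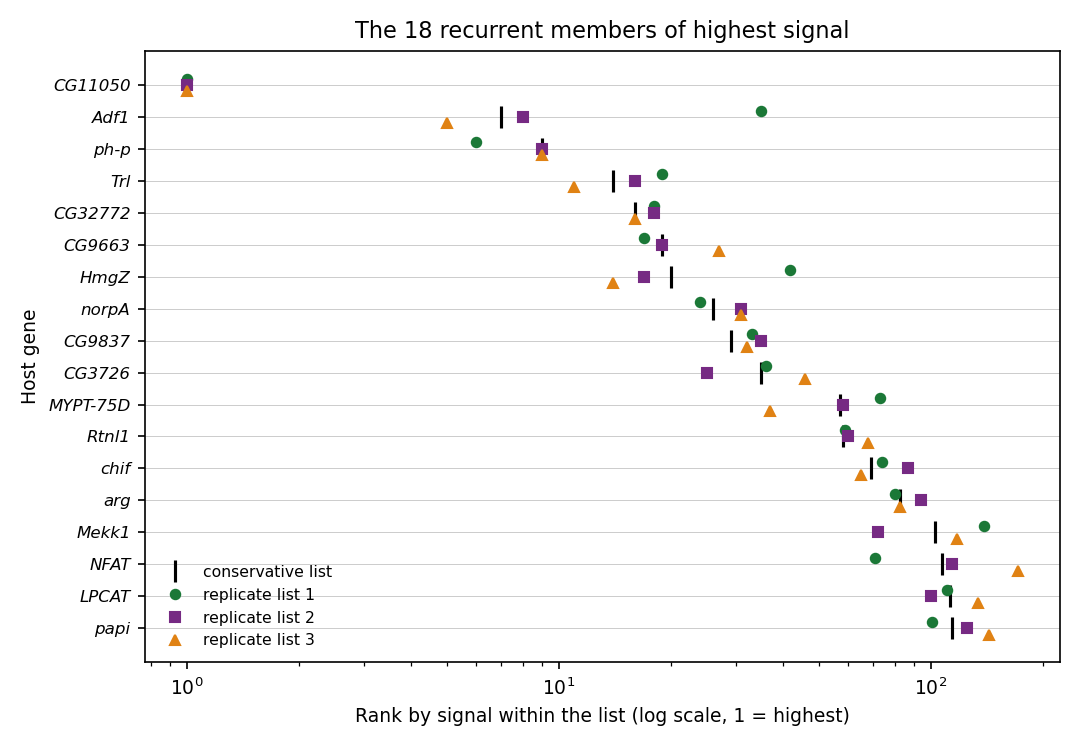
Rank by signal within each list (log scale, 1 is the highest) of the 18 members of highest signal found in all 3 replicate lists, named by host gene. Vertical ticks are the conservative list and symbols the 3 replicate lists. CG11050 ranks first in every list and all 18 stay at or above rank 172, that of NFAT in replicate 3.

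The members were shared unevenly between genes. They lay in 567 host genes, of which 429 held 1 member, 98 held 2 and 40 held 3 or more. HmgZ and CG1677 held 6 each. At HmgZ 5 of the 6 were in all 3 replicate lists, in 5 separate regions of a gene of 10374 bp, though the strong replicate peak of rank 42, 17 and 14 overlapped a pair of them. Members of 1 gene are therefore not separate pieces of evidence. At CG1677, a gene of 124709 bp, 3 of 6 were, and all 6 were nearest to the TSS of another gene. CG32264, Moe (moesin, which links actin to the membrane), SNF4Agamma (the gamma subunit of AMP-activated kinase) and Tlk (Tousled-like kinase) held 5 each, with 2, 2, 1 and 2 in all 3 lists. CG42258 and CHES-1-like (a forkhead transcription factor) held 4 each, with 3 in all 3 lists. CG10543 (2 of 4 in all 3 lists), CG18135 (0 of 4), MESK2 (0 of 4), Svil (a supervillin, 1 of 4) and bun (the TSC22-domain protein bunched, 1 of 4) also held 4.

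Among the 27 genes with 3 members were CAP, CG13868, CG32425, CG5160, CG6231, CG9837, Diap1, Fim, HmgD, Paip2, Rgl, Sik3, Snp, Socs36E, Trl, cnc, dlg1, hebe, larp, ps, rdx, sba, shn, sug, tai and tou. They include the apoptosis inhibitor Diap1, the polarity scaffold dlg1, the JAK/STAT inhibitor Socs36E, the Nrf2-related factor cnc and the splicing regulator ps (pasilla). Some of these genes are long and have many starts, such as Svil with 121572 bp and 16 TSSs or SNF4Agamma with 73531 bp and 11, while CG9837 spans 5901 bp with 2.

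Host genes were read against lists of pathway genes. Among the 7948 protein-coding genes with at least 1 window or member meeting the rule, 567 (7.13%) held a member, and in the replicate lists 4.98% ± 0.686 did (SD, n = 3). Since genes with more of such sequence can hold more summits, the density per Mb is given beside the count, and it was 61.6 members per Mb over all genes (40.6 ± 6.0 in the replicate lists). The lists were given no test, and several held fewer than 10 members. A host is the gene whose intron held the summit, and its own start need not be the nearest. The best members named below at drk, wit, Sik3, NetB and kirre were nearest to starts of mars, CG32259, CG15071, hog and CG4116, in that order.

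Chromatin regulators had the highest density. Of 26 such genes 6 held members (23.1% of genes), which came to 232 members per Mb and 169 ± 55.8 per Mb in the replicate lists. After Adf1, ph-p and Trl the highest was psq, whose protein binds GAGA sites (rank 3332). Only Adf1, ph-p and Trl had a member in all 3 replicate lists. These 3 genes held 6 of the list's 11 members and were known as strong hosts from earlier results when the list was drawn up, so its density is no independent sign.

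Signalling genes were mixed. The EGF receptor and Ras list had 7 of 20 genes (35.0%) and 172 members per Mb (89.4 ± 11.1 in the replicates), with drk, the Grb2 adaptor (rank 573), sty, the feedback inhibitor Sprouty (rank 1068), edl, an inhibitor of the Ets protein Pnt (rank 1463), and the ligand spi (rank 1605) highest. drk, sty and edl were in all 3 replicate lists, and spi was in 1. The insulin and TOR list had 5 of 17 genes (29.4%) and 190 per Mb (109 ± 47.1), and Sik3 held 3 of its 7 members. InR, the insulin receptor, led it with a signal of 403, rank 397 and replicate ranks 492, 313 and 519, and Sik3, a kinase (rank 1240), chrb, an inhibitor of TOR signalling (rank 2640), and S6k (rank 3422) followed, none of them in all 3 lists. The BMP list had 3 of 14 genes (113 per Mb, replicates 107 ± 21.8): the receptor wit (rank 360), the transcription factor shn (rank 2152) and the inhibitory Smad Dad (rank 2219). Of its 6 members shn held 3. The Notch list had 3 of 17 (75.4 per Mb, replicates 58.6 ± 14.5): numb, an inhibitor of Notch (rank 521), neur, a ubiquitin ligase of its ligands (rank 527), and the repressor hry (rank 3249). The ecdysone list had 4 of 16 (64.2 per Mb, replicates 39.3 ± 6.18), led by ImpL2 (rank 1324) and the coactivator tai (rank 1828) and followed by the receptor EcR (rank 3662) and Hr4 (rank 3980). In the Hedgehog and Wingless list 1 of 18 genes held a member (19.3 per Mb), the kinase gene sgg at rank 3478, and 0 did in any replicate list.

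Genes of cell shape were also frequent hosts, while RNA-binding genes were so by count but lay near all genes by density. The actin and polarity list had 6 of 22 genes (27.3%), 153 members per Mb and 116 ± 35.0 in the replicates. Moe alone held 5 of its 11 members, so the density rests largely on 1 gene. Moe (rank 260), the cofilin gene tsr (rank 349), the formin gene dia (rank 464) and jar, myosin VI (rank 812), led it, and their best members were in all 3 replicate lists. The RNA-binding list had 9 of 24 genes (37.5%, replicates 26.4% ± 4.81), but its genes hold much intronic sequence, and its density was 76.7 per Mb, against 61.6 over all genes, with 41.3 ± 11.8 in the replicates against 40.6. Its highest members were at mub (signal 577), brat (signal 524), elav (signal 354) and pum (signal 216), regulators of splicing or translation, and each of these was in all 3 replicate lists.

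By density, neural, muscle and ribosomal protein genes lay near or below all genes. The list drawn up for transcription factors of neuroblasts and neurons had 3 of 21 genes. It had 55.2 members per Mb (46.0 ± 21.1 in the replicates). The genes were brat (rank 244), zfh1 (rank 541) and chinmo (rank 3581). Of these, brat is a regulator of translation rather than a transcription factor, and the same member is counted in the RNA-binding list. The zfh1 member is likewise counted again in the mesoderm and muscle list. The axon guidance list had 1 of 32 genes (3.12%), the guidance cue gene NetB at rank 2728, which is 9.63 members per Mb (3.21 ± 5.56 in the replicates). The mesoderm and muscle list had 5 of 29 genes and 39.5 per Mb (23.7 ± 13.7), with zfh1 (rank 541), mbc (rank 2107), kirre (rank 2679) and sd (rank 3305) highest. The ribosomal protein list had 1 of 49 genes (2.04%), RpS7 at rank 4473, found in no replicate list.

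**Figure D4:**
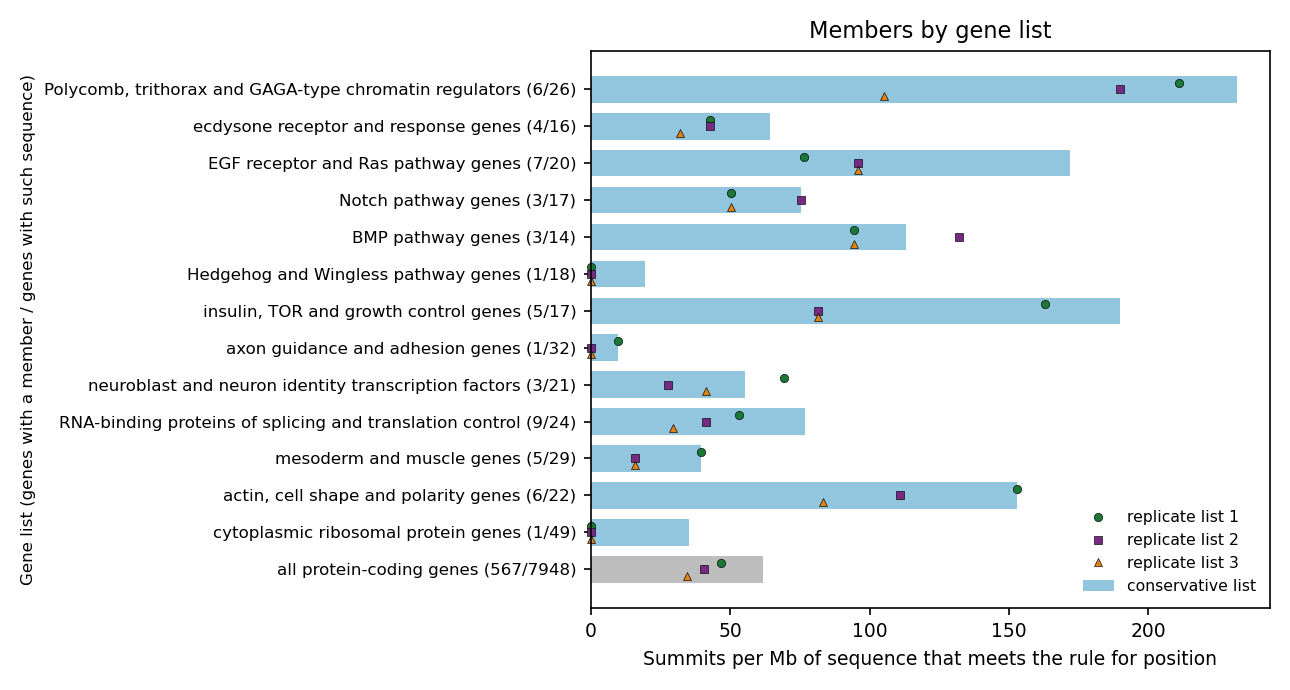
Members per Mb of sequence meeting the rule for position (horizontal axis) by gene list, with the number of host genes over the number of genes with such sequence in brackets and all protein-coding genes at the bottom. Bars are the conservative list and points the 3 replicate lists. Chromatin regulators (232 per Mb) stand highest and axon guidance genes (9.63 per Mb) lowest, against 61.6 for all genes. Adf1, ph-p and Trl, known as strong hosts when the list was drawn up, hold 6 of the 11 members of the chromatin list.

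The words near the summits were compared with 62126 windows of 201 bp, tiled every 200 bp over all sequence that meets the rule for position, with both strands read. ACAGTG, which reads CACTGT on the other strand and was found by a scan of 6 bp words in these same members, lay within 100 bp of the summit in 170 of 766 members (22.2%, Wilson interval 19.4 to 25.3), against 8.11% of tiled windows. It was first of the 1391 words compared, with a ratio of 2.74, and as it was picked for this its shares are a description and no p is given. In the same list it was at 20.5% of distal intronic summits, which lies within the members' interval, and at 15.5% of promoter and 15.1% of intergenic summits. Its longer form CACAGTGG was in 45 members (5.87%), against 0.926% of windows. Over the 203 copies of ACAGTG, the next base was G in 54.7%, and the base before it was C in 41.9% and T in 35.5%.

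The copies of ACAGTG lay to the side of the summit. Their density was 0.854 per kb within 40 bp of it, 1.71 per kb at 40 to 100 bp and 0.796 per kb at 100 to 200 bp, against 0.438, 0.436 and 0.438 per kb in the tiled windows. At 40 to 100 bp ACAGTG was again first, of 653 words, with whole copies in 15.9% of members against 4.66% of windows. Within 40 bp it came behind GTACAC and AGAGCG among 355 words, with a ratio of 1.86, against 2.44 for GTACAC. In replicates 1, 2 and 3 the density was 1.64, 1.94 and 2.42 per kb at 40 to 100 bp, against 1.15, 0.781 and 0.804 per kb within 40 bp. Both sides of the summit had it, with 2.09 per kb at 80 to 100 bp on the lower-coordinate side and 1.96 per kb at 80 to 100 bp on the other. The rings were chosen after this shape was seen, so no p is given for these densities. Distal intronic summits had a like shape, with 0.748, 1.56 and 0.828 per kb over the same rings, and promoter summits a flatter one, with 0.864, 0.872 and 0.682.

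**Figure D5:**
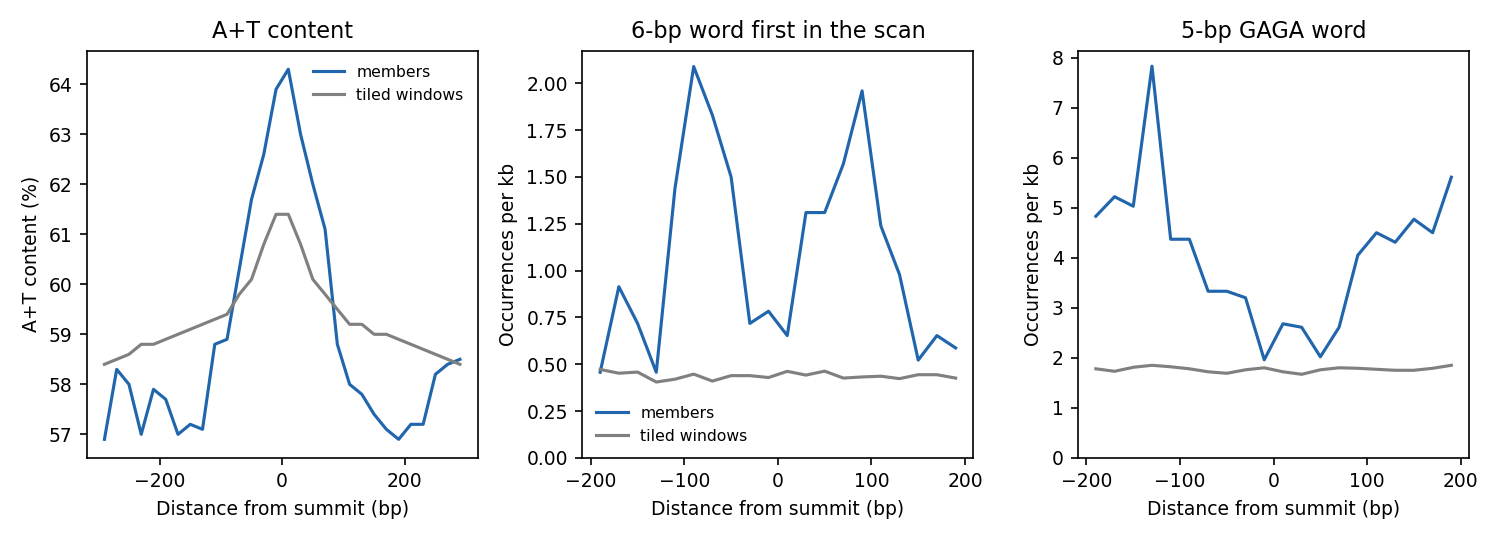
Sequence around the member summits and around the centres of tiled windows in steps of 20 bp: A+T content (%, the axis does not start at 0), copies of ACAGTG per kb (the 6-bp word) and copies of GAGAG per kb (the 5-bp word) against distance from the summit (bp). The A+T content of members peaks at the summit at 64.3%, and ACAGTG peaks about 90 bp to either side at 2.09 and 1.96 per kb. GAGAG has a broad, uneven low about the summit. It is 1.96 per kb in the 20 bp on the lower-coordinate side, and on the other side 2.68 in the first 20 bp and 2.02 at 40 to 60 bp.

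In the replicate lists ACAGTG was more frequent at near-intronic summits than at promoter, distal intronic and intergenic ones. Near-intronic summits in replicates 1, 2 and 3 had it in 23.0%, 23.7% and 29.1%, against 16.9%, 15.4% and 16.7% of promoter summits, 20.2%, 21.8% and 23.4% of distal intronic summits and 14.3%, 16.3% and 17.7% of intergenic summits. The difference was 8.90 ± 3.18 points from promoter, 3.44 ± 2.01 from distal intronic and 9.13 ± 2.06 from intergenic summits (SD, n = 3). No p is given, since the word was chosen on members that share their libraries with these lists, and CDS or UTR summits were not compared. Among the members its share was 27.4% at ranks 1 to 500, 31.4% at 500 to 1000, 22.7% at 1000 to 2000 and 15.6% at ranks 4000 to 4943, so it was rarest in the weakest members.

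GAGAG, read on both strands, lay farther out. Within 100 bp it was in 227 members (29.6%, Wilson interval 26.5 to 33.0), against 21.2% of tiled windows, and GAGAGAG, which contains it, in 60 (7.83%), against 3.35%. The other classes were also above the windows for GAGAG, at 28.4% of distal intronic, 26.9% of intergenic and 26.5% of promoter summits, all at or within the limits of the members' interval. Its density was 2.61 per kb within 40 bp, 3.30 at 40 to 100 bp and 5.10 at 100 to 200 bp, against 1.74, 1.76 and 1.79 in the windows, and AGAGAG was the first of 1468 words in the outer ring (24.0% against 8.55%). Overlapping copies were each counted, so a long run adds several to these densities. By share, 41.1% of members held GAGAG in the outer ring, against 22.4% of windows. In the replicates the outer ring had 5.65, 5.50 and 5.57 per kb, against 3.54, 2.54 and 1.21 within 40 bp. Replicate 3 was lowest at the centre and like the others outside. The outer ring had 3.16 per kb at promoter summits and 3.57 at distal intronic ones.

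The homeodomain words were near or below background, and the promoter words TATCGATA and GGTCACAC were rare in members. TAATTA, a typical homeodomain site, was in 110 members (14.4%, Wilson interval 12.1 to 17.0), against 15.2% of tiled windows, and TAATTG in 144 (18.8%), against 21.5%. In the same list TAATTA was at 14.9% of distal intronic, 13.1% of promoter and 12.1% of intergenic summits, all at or within the limits of the members' interval. In the replicate lists near-intronic summits had TAATTA less often than distal intronic ones each time, by 3.05 points on average (13.4% ± 2.47 against 16.5% ± 2.10, SD, n = 3, exact permutation p = 0.25). TATCGATA, which holds the core of the DREF site of promoters, was in 3 members (0.392%), against 0.419% of windows and 9.95% of promoter summits. GGTCACAC, the core of the Ohler 1 promoter element, was also in 3 members (0.392%), against 0.278% of windows and 5.78% of promoter summits. In the replicates these words differed from promoter summits by −9.80 ± 0.815 and −4.81 ± 0.864 points (n = 3, lower in 3 of 3, exact permutation p = 0.25 each). CAGGTAG, the site of the early embryonic factor Zelda, was in 2 members (0.261%), against 1.01% of windows. TATAAA, a word of A and T alone, was in 32.8% of members, above the 25.7% of windows. It was at 27.1% of promoter, 29.2% of distal intronic and 29.1% of intergenic summits.

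The A+T content rose to the summit and lay below that of the tiled windows farther out. It was 63.9% and 64.3% in the 20 bp on either side of the member summits, against 61.4% at the centres of tiled windows, and at 180 to 200 bp it was 56.9%, against 58.9%. Over the 201 bp windows the median G+C content was 37.3% (interquartile range 32.3 to 43.8) in members, against 39.8% in tiled windows, 40.8% at promoter summits and 36.8% at distal intronic summits. It was 35.8% in members ranked 1 to 500 and 42.8% in those ranked 4000 to 4943. Repeat-masked sequence filled at least 50% of the window in 3.13% of members, against 4.35% of tiled windows. Whether base composition has a part in the word shares was not tested.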

How the data were processed

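Peaks were taken from deposited lists of a Dbx-eGFP ChIP-seq in 3 biological replicates, numbered as the labels number them. The authors deposited thresholded and ranked IDR lists on dm6 for each replicate and for the series, per the deposited text. The conservative series-level list is derived there from the alignments of all 3 replicates, and the pair or pool it compares is not stated. The signal of a peak is the authors' deposited value, as are the −log10 IDR in the ranked lists and the summit offset in bp. Neither aligner nor peak caller is named in the sources used here (not given), depth is unknown, and the control was not analysed here. Nothing beyond the word "biological" says how separate the replicate embryo collections were, so p-values may measure technical spread only.

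Positions, written 1-based, were read against gene models of Ensembl release 115 and bases of the RefSeq dm6 assembly. Of 30593 annotated start codons 30540 read ATG. Summits were assigned to classes by the rule in the text, and the host was the gene with the nearest TSS among those whose intron held the summit. Overlap was 1 bp or more, so 1 replicate peak can serve several members. Windows of 201 bp were tiled every 200 bp over sequence that meets the rule. Intervals are 95% Wilson intervals and cover counting error over peaks only. The scan kept words found in at least 40 members. Genes were named by a rule: hosts of the 20 recurrent members of highest signal, up to 4 genes of each list by best member, genes with 3 or more members, and members at the distance limits. One such gene is not reported here. The members and lists were chosen with earlier results of these data known. The word ACAGTG, the rings and the 2 sets without overlapping peaks were added after the data were seen. Alternatives were other distance limits, annotations, overlaps, lists and windows. Python 3.11.15, numpy 2.4.6, scipy 1.17.1 and matplotlib 3.10.9 were used, and the classification and word search were tested on simulated data.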

Additional observations from a re-analysis of the deposited data

How the results depend on the processing

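The number of members stayed within 1.5 times of 766 with a lower limit of 500 bp (589), starts of every gene (810), the longest list (988), 1 summit per region or no overlap with a promoter peak. It was 84.0 among the 500 peaks of highest signal and 294 in all 3 replicate lists. Members found in both remaining lists numbered 321 to 383 when 1 replicate was left out. The share in all 3 lists was 97.6% among the 500 highest, and 41.9% to 50% with 1 replicate left out. The share with GAGAG was 14% within 50 bp and 43.0% within 150 bp, against 11.3% and 30% of tiled windows. For ACAGTG it was 8.09% and 29.2%, against 4.11% and 11.8%. This word was in 27.4% of members among the 500 highest, in 29.9% of those in all 3 lists, and in 27.2% to 30.1% of those in both lists that remained with 1 replicate left out. Of 99 alternatives computed, 65 stayed near the reported value and 34 did not, where near means within 1.5 times for the number of members and within 1 SD between replicate lists for the shares and medians. Classes of peak were compared within each replicate list, and no second group of samples was there to pair. The lists give no depth, and overlap with replicate lists depends on list length.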
